A study of Mus musculus with 12 samples.

Results

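*Nrn1*, *Ric3* and *Dcaf12l1* are 3 genes of the 34245 in the count table whose mRNA was lower in aged than in young intestinal stem cells (ISC). They were picked from that difference, because it was larger than RNA of adult enterocytes (AE) carried into the stem cell gate could give, so the values of the ISC libraries are a description of the choice and were not tested. The level in AE entered the choice only through that limit. As estimated here, the limit takes the AE level of each age, and ISC and AE libraries of a code may come from the same mouse. The comparison of aged with young AE is the one test made here on the 3 genes, and it is not fully independent of the choice. All 3 genes had enough counts to be fitted in each comparison. In AE, *Dcaf12l1* had them through the young libraries alone, with 58 counts in young and 0 in aged AE.

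RNA was sequenced from sorted cells of the small intestine of male C57BL/6 mice that carry the Lgr5-EGFP-IRES-CreERT2 knock-in, which makes EGFP and a tamoxifen-inducible Cre from the *Lgr5* locus, a gene active in crypt base stem cells. All 4 groups carried this allele, and the labels name no treatment. The young mice were about 8 months old and the aged mice about 27 months old. ISC were the GFP-high, DAPI-negative cells of crypt suspensions, a gate that used no antibody against immune or endothelial cells, whereas AE were Epcam-high villus cells negative for CD31, CD45 and DAPI. Each of the 4 groups had 3 libraries, named here by their codes (Y1, Y2 and Y3 for young, O1, O3 and O5 for aged). In 8 of 12 sample titles the code and the remaining words name different groups, so each library was placed only by its own column name. *Lgr5* stood at 98.7 ± 31.4 CPM (SD, n = 3; CPM are counts scaled by library size) in young ISC, where young AE had 2.44 ± 2.11, and the enterocyte gene *Vil1* at 671 ± 88.9 against 4674 ± 496, so the column names and the markers of the sort went together. Libraries held between 11893817 and 26796461 counts except the young AE library Y3, which held 110794420. Within groups, every pair of libraries differed by more than counting noise.

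The small intestinal epithelium renews from *Lgr5*-positive stem cells at the crypt base, whose progeny divide, move up the villus and mature, most of them into absorptive enterocytes. *Nrn1* encodes neuritin, a small GPI-anchored protein that neurons make on activity and that promotes the growth of neurites. *Ric3* encodes a chaperone of the endoplasmic reticulum that assists the folding and assembly of nicotinic acetylcholine receptors. *Dcaf12l1* encodes a WD-repeat protein of the family of DDB1-CUL4-associated factors (DCAF), proteins that bring substrates to the CRL4 ubiquitin ligases. None of the 3 is a standard marker of an intestinal epithelial cell type.

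All 3 genes lie on the minus strand of GRCm38. *Nrn1* (ENSMUSG00000039114.16) spans chr13:36725361-36735131, with 5 transcripts and 2249 bases of merged exons. *Ric3* (ENSMUSG00000048330.14) spans chr7:109034312-109083331, with 6 transcripts and 8561 bases of merged exons. *Dcaf12l1* (ENSMUSG00000045284.9) is a compact X-linked gene at chrX:44786570-44790197, with 2 transcripts, 2 exons and 3531 bases of merged exons. 

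The stretch of *Nrn1* that the study amplified by RT-qPCR is shown because it marks spliced, coding *Nrn1* mRNA (values of that assay are not used here), with the forward primer and the complement of the reverse primer in capitals.
Nrn1 forward primer: TTCACTGATCCTCGCGGTG
Nrn1 reverse primer: GGGTAGTTGGCCATGCTGT
Nrn1 product: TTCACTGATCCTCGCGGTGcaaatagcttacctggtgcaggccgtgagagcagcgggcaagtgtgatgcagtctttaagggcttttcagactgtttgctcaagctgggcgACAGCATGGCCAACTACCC
In a transcript that holds both primer sites the product takes 26 bases of exon 1 (chr13:36734236-36734261) and 103 bases of exon 2 (chr13:36730149-36730251), which an intron of 3984 bases separates. Of the 5 transcripts annotated, 2 hold both primer sites. The RNA-seq counts do not separate transcripts.

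*Dcaf12l1* was the one gene of the 3 that had 0 counts in a whole group, and its promoter is shown for that reason. RefSeq gave 2 promoter entries for it, and the outermost start was used. Shown are the 250 bases before that start on the minus strand (GRCm38.p6, chrX:44790198-44790447), with GC boxes in capitals.
Dcaf12l1 promoter: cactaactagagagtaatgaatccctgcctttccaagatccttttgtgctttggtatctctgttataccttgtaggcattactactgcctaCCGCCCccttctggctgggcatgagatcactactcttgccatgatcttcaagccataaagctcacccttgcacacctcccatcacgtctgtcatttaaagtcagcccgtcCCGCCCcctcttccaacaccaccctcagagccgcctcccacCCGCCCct
The window had a GC content of 52.8%. It held the GC box (GGGCGG, searched on both strands) 3 times, beginning 159, 49 and 8 bases before the start, and 32.7% of the 32851 promoter windows of this length held at least 1. The cAMP response element TGACGTCA, which 1.55% of all windows held, was not among its letters on either strand. Nor was the core motif CTTTGA of TCF/LEF factors, which relay Wnt signals in crypts and which 13.8% of windows held.

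*Nrn1* was the most abundant of the 3, also per length of transcript. In ISC it had 295, 325 and 304 counts in the young libraries Y1, Y2 and Y3 and 235, 46 and 160 in the aged libraries O1, O3 and O5. Scaled for library size these were 18.8, 18.5 and 17.1 CPM in young ISC and 6.59, 2.48 and 7.11 CPM in aged ISC. The 3 young libraries lay close together, whereas the aged ones were spread, with O3 far below the others. The mean was 18.1 ± 0.917 CPM (SD, n = 3) in young and 5.39 ± 2.53 in aged ISC, a 3.36-fold difference (log2 fold change -1.73, standard error 0.35). The lowest young library was still 2.40 times the highest aged one.

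*Ric3* was less abundant in ISC, with 46, 55 and 44 counts in Y1, Y2 and Y3 and 23, 16 and 20 in O1, O3 and O5. Its level was 2.93, 3.12 and 2.47 CPM in young ISC against 0.645, 0.864 and 0.888 CPM in aged ISC. Both groups were narrow, and the aged mean of 0.799 ± 0.134 CPM was 28.1% of the young mean of 2.84 ± 0.335 (log2 fold change -1.83, standard error 0.33). Of the 3 genes, *Ric3* had the widest gap between the groups, 2.78-fold from the lowest young to the highest aged library.

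*Dcaf12l1* was counted 71, 42 and 65 times in young ISC (Y1, Y2, Y3) and 31, 17 and 29 times in aged ISC. These gave 4.52, 2.38 and 3.65 CPM in young and 0.870, 0.917 and 1.29 CPM in aged ISC. Here it was the young group that was spread, with Y2 lowest. The mean was 3.52 ± 1.08 CPM in young and 1.03 ± 0.229 in aged ISC (log2 fold change -1.77, standard error 0.36), and the lowest young library stood 1.85-fold above the highest aged one.

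In ISC the 3 genes therefore had much the same ratio of young to aged, from 3.36 to 3.56, on levels that differed. Per kilobase of merged exon, the scale on which levels of different genes can be compared, young ISC held 8.05 CPM of *Nrn1*, 0.997 of *Dcaf12l1* and 0.332 of *Ric3*. The groups did not overlap for any of the 3. The same was so, in the lower direction, of 4.44% of all 15552 genes fitted in this comparison, and nothing is read from that because it is what the genes were picked for. No gene of the table was called in aged against young ISC by edgeR's quasi-likelihood test (0%; FDR threshold 0.05), with 695 (4.47%) at an unadjusted p under 0.05, and DESeq2 called 59 (0.412%). The log2 values that the authors deposited, scaled at the 75th percentile, gave aged minus young differences of -1.94 for *Nrn1*, -1.84 for *Ric3* and -1.72 for *Dcaf12l1*.

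**Figure D1:**
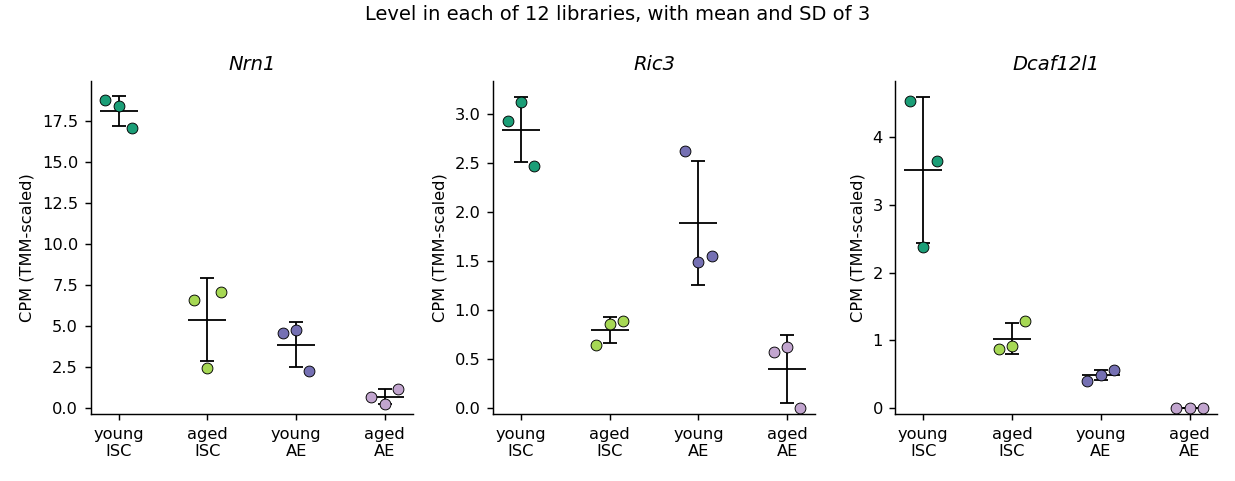
TMM-scaled CPM of *Nrn1*, *Ric3* and *Dcaf12l1* (y axes, linear, 1 scale per gene) in the 12 libraries, by group (x axes). Points are libraries, horizontal lines the means and bars the SD of 3, and every gene has its highest group in young ISC and its lowest in aged AE, where *Dcaf12l1* is at 0 in all 3 libraries.

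AE had less of each mRNA than ISC of the same age, by amounts that differed between the genes. *Nrn1* had 56, 58 and 191 counts in the young AE libraries, which were 4.58, 4.80 and 2.28 CPM, and 7, 3 and 11 counts in the aged ones, which were 0.666, 0.269 and 1.20 CPM. The aged libraries were all below the young ones, with the deepest library, Y3, the lowest of the young. The mean was 3.89 ± 1.39 CPM (SD, n = 3) in young and 0.712 ± 0.467 in aged AE, a 5.46-fold difference. The log2 fold change was -2.43 (standard error 0.58). In edgeR's quasi-likelihood test over 16265 genes its adjusted p was 0.833 (FDR, Benjamini-Hochberg) and its unadjusted one 0.00252, so *Nrn1* was not called.

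*Ric3* was counted 32, 18 and 130 times in the young AE libraries and 6, 7 and 0 times in the aged ones. In CPM these were 2.62, 1.49 and 1.55 against 0.571, 0.627 and 0. *Ric3* was the gene that differed least between the cell types in young mice, and its range in young AE overlapped that in young ISC. Its mean in aged AE, 0.399 ± 0.347 CPM, was 21.2% of that in young AE, 1.89 ± 0.634 (log2 fold change -2.15, standard error 0.80). It was not called either, at an adjusted p of 0.833 in the same edgeR test (0.0254 unadjusted).

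*Dcaf12l1* was near the limit of detection in AE, with 5 and 6 counts in the young libraries Y1 and Y2, 47 in the deep library Y3 and 0 in all 3 aged libraries. These are 0.409, 0.496 and 0.562 CPM in young AE, a narrow range over libraries of very different depth. For the aged group together, a count of 0 allows up to 0.0973 CPM (3 counts over the group, counting error only). That limit is 5.03-fold below the young mean of 0.489 ± 0.0767 CPM, with this mean taken as exact. Spread between libraries is not part of the limit. Its fitted log2 fold change of -6.53 depends on how a count of 0 is handled and is no measure of size. Its adjusted p was 0.833 with edgeR (0.00500 unadjusted), so the gene was not called.

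In AE, then, the young and aged libraries did not overlap for *Nrn1*, *Ric3* or *Dcaf12l1*, each lower in aged, where 6.94% of all 16265 genes did the same. A two-sided exact permutation test over the libraries gave p = 0.1 for each, the smallest that 3 against 3 can give. Any gene whose groups do not overlap gets this p, so it adds nothing to the lack of overlap. *Dcaf12l1* entered this comparison only through its young libraries, so nothing is read from its lack of overlap, its rank or its p-values. By unadjusted p in the edgeR test the 3 genes ranked 25, 344 and 52 among the 16265 genes. That test called 0% of the genes, with 809 (4.97%) at an unadjusted p under 0.05, while DESeq2 called 17 genes (0.105%), none of them among the 3. With DESeq2 the FDR was 0.0641 for *Nrn1*, 0.612 for *Ric3* and 0.552 for *Dcaf12l1*. Over the alternatives it ran from 0.0641 to 0.9997 for *Nrn1*, from 0.327 to 0.9997 for *Ric3* and from 0.279 to 0.9997 for *Dcaf12l1*. Without the deep young AE library Y3 the log2 fold changes of the edgeR fit were -2.71, -2.27 and -5.34. The study's methods give the ages of 3 animals per cohort, as many as the libraries of a group, but do not tie libraries to animals, and these p-values measure the spread between libraries.

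**Figure D2:**
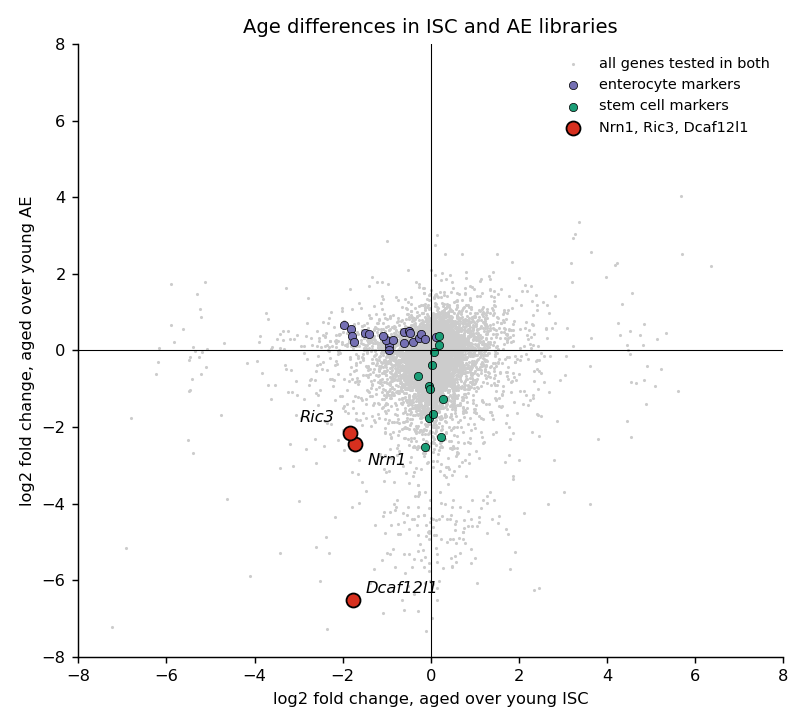
Log2 fold change of aged over young in ISC (x axis) and in AE (y axis), with 1 grey point for each gene fitted in both, 20 enterocyte markers in purple, 12 stem cell markers in green and *Nrn1*, *Ric3* and *Dcaf12l1* in red. The 3 genes are below 0 on both axes, the enterocyte markers are mostly left of 0 and above it, and the stem cell markers lie near 0 in ISC and mostly below 0 in AE.

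A lower level with no overlap in both cell types was found for 119 of the 14723 genes fitted in both (0.808%), the 3 described here included. Of the 665 genes that were so in ISC, 119 (17.9%) were so in AE, and ISC and AE libraries of a code may come from the same mouse. The sizes of the age differences can be set side by side. The aged level was 29.8% of the young level of *Nrn1* in ISC and 18.3% in AE, and for *Ric3* it was 28.1% and 21.2%. The difference of the log2 fold changes, ISC minus AE, was 0.70 (standard error 0.67) for *Nrn1* and 0.33 (standard error 0.82) for *Ric3*, each close to or below its standard error. Of all genes, 0.00575% were called for this difference by edgeR. For *Dcaf12l1* the aged level in ISC was 29.1% of the young level, and no such difference can be sized with aged AE at 0. The order of the 4 groups in CPM was young ISC, aged ISC, young AE and aged AE for *Nrn1* and *Dcaf12l1*. No neighbouring groups of that order overlapped for *Dcaf12l1*, and only aged ISC and young AE did for *Nrn1*. *Ric3* had another order, young ISC, young AE, aged ISC and aged AE, in which only the ranges of the 2 young groups overlapped. The last pair of that order was close, with 0.645 CPM in the lowest aged ISC library and 0.627 CPM in the highest aged AE library.

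Between the cell types, *Nrn1* had a log2 fold change, AE over ISC, of -2.25 (standard error 0.31) in young and -3.03 (standard error 0.57) in aged mice. *Ric3* differed by -0.60 (standard error 0.38) and -1.01 (standard error 0.81). *Dcaf12l1* differed by -2.80 (standard error 0.44) in young mice, and in aged mice it was at 0 in AE. These contrasts use the ISC libraries from which the genes were picked, and no test of them is given. Of all genes, 53.1% were called by edgeR between the cell types in young and 64.1% in aged mice.

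The 3 genes were picked against the share of AE RNA in the ISC libraries, which can be estimated. Taking the 20 enterocyte markers, the median ratio of their level in an ISC library to their mean in AE of the same age was 4.78%, 4.48% and 10.6% in Y1, Y2 and Y3 and 1.55%, 5.43% and 2.31% in O1, O3 and O5. These markers were together at 5048 to 11561 CPM in young and 2361 to 6673 CPM in aged ISC, and 19 of 20 had a negative log2 fold change there (median -0.90, against 0.01 for all genes). At such shares AE RNA would bring 0.186, 0.174 and 0.410 CPM of *Nrn1* to the young ISC libraries. That is at most 2.40% of the *Nrn1*, 8.06% of the *Ric3* and 1.41% of the *Dcaf12l1* measured in any ISC library. Of the difference between young and aged ISC it would make 1.85% for *Nrn1*, 5.50% for *Ric3* and 1.30% for *Dcaf12l1*. A library made wholly of young AE RNA would hold the young AE level, which is 30.6% of that difference for *Nrn1*, 19.6% for *Dcaf12l1* and 92.4% for *Ric3*. For *Ric3*, whose level in young AE is near that in young ISC, the limit therefore rests on the AE share being small.

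The same sum can be made for ISC RNA in AE, where the genes were lower in aged mice too. The 12 stem cell markers stood in the AE libraries at a median of 4.01%, 11.8% and 2.37% of their ISC level in Y1, Y2 and Y3 and 1.87%, 3.60% and 2.71% in O1, O3 and O5. Together they were at 171 to 774 CPM in young and 192 to 282 CPM in aged AE, and 10 of 12 had a negative log2 fold change (median -0.97, against -0.04 for all genes). The 14 proliferation markers were at 92.3 to 476 CPM in young and 111 to 114 CPM in aged AE, and 14 of 14 had a negative log2 fold change (median -1.42). ISC RNA at these shares would give 44.6% of the *Nrn1* and 83.8% of the *Dcaf12l1* in the young AE library Y2, but 18.8% and 14.9% in Y3. Of the *Nrn1* in the aged AE library O3, which had 3 counts, it would give 72.3%. Over the groups it would make 29.9% of the difference between young and aged AE for *Nrn1*, 10.1% for *Ric3* and 37.9% for *Dcaf12l1*. Without the AE library Y2 these were 15.8%, 4.08% and 17.4%. With the proliferation markers in place of the stem cell markers they were 65.3%, 22.0% and 82.6%. In bulk libraries fewer cells of a type and less RNA per cell cannot be told apart.

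**Figure D3:**
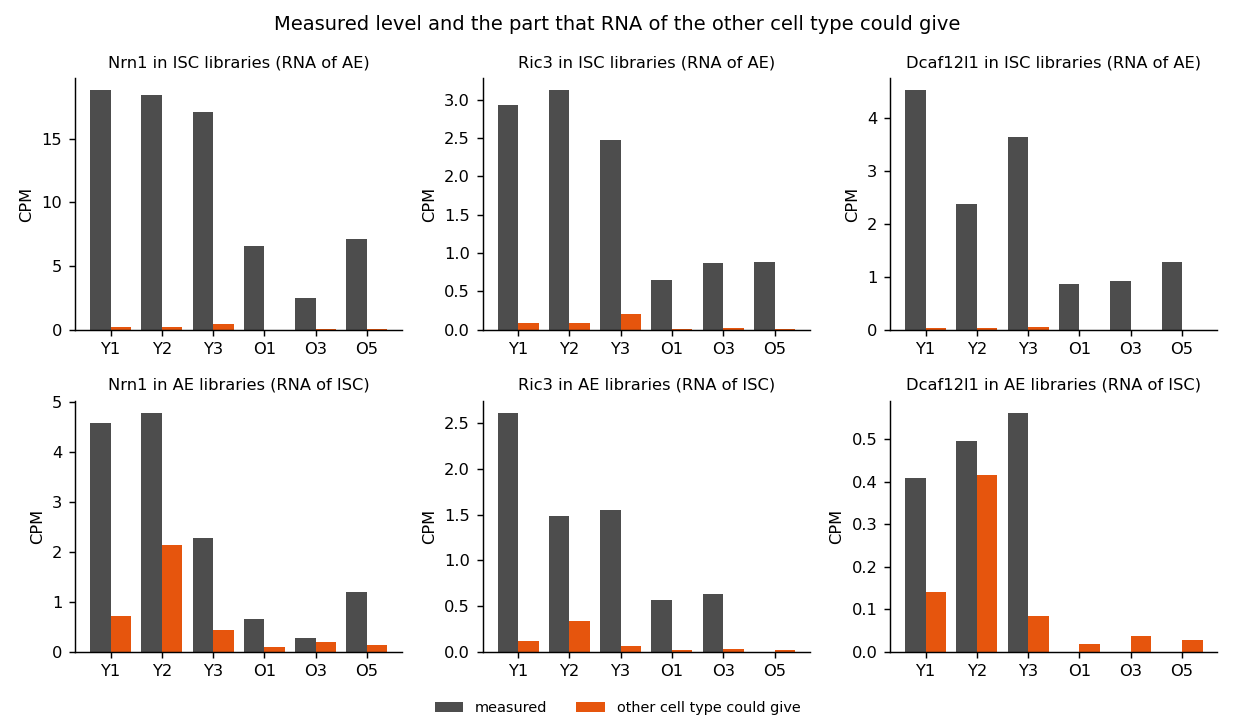
Measured CPM (grey bars) and the CPM that RNA of the other cell type could give (orange bars) for each gene, in ISC libraries (upper row, AE RNA from enterocyte markers) and AE libraries (lower row, ISC RNA from stem cell markers). The orange bars are small beside the grey in every ISC library, and in AE they reach 83.8% of the measured *Dcaf12l1* in Y2.

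Markers of other cells were followed in the same libraries, since the GFP-high gate was not cleared of immune cells. Of 12 lists, those of T cells with intraepithelial lymphocytes and of goblet cells were lower in aged than in young ISC without overlap, as *Nrn1*, *Ric3* and *Dcaf12l1* were, and the ranges of the other lists overlapped there. The 12 T cell and intraepithelial lymphocyte markers summed to 20.9, 9.88 and 9.38 CPM in Y1, Y2 and Y3 and to 5.67, 6.91 and 6.00 CPM in O1, O3 and O5. Of the 11 fitted, 9 had a negative log2 fold change, 6 were at an unadjusted p under 0.05 (4.47% of all genes), none was called by edgeR and 3 were called by DESeq2 (0.412% of all genes). *Cd8a*, a T cell coreceptor gene, had a mean of 1.16 CPM in young ISC and 0.0367 in aged ISC, and *Nkg7*, a gene of cytotoxic granules, had 0 counts in aged ISC. In AE the same list stood at 15.1 to 41.8 CPM in young and 17.7 to 39.8 CPM in aged mice, ranges that reached above those in ISC and overlapped between the ages, while *Nrn1*, *Ric3* and *Dcaf12l1* were lower in AE than in ISC and lower in aged AE. The goblet list had 9 markers at 1998 to 2247 CPM in young and 1398 to 1910 CPM in aged ISC, and its summed level in young AE was higher than in any ISC library. Of these 9, 6 had a negative log2 fold change in ISC and 3 a positive one (median -0.25, against 0.01 for all genes). At an unadjusted p under 0.05 in ISC were 3 of the 9, none was called by edgeR and 2 were called by DESeq2. *Clca1* (log2 fold change -1.43) and *Zg16* (-1.28), which encode proteins that goblet cells secrete, were among those lower in aged ISC without overlap. In AE the enterocyte list (82429 to 105993 CPM in young and 106583 to 131187 CPM in aged) and the list of stroma and endothelium (1.72 to 2.48 and 2.94 to 4.66 CPM) were higher in aged libraries without overlap. Some lists whose ranges overlapped in both cell types also had mostly negative log2 fold changes in both. Among tuft markers 9 of 11 were negative in ISC and 10 of 11 in AE, and among Paneth markers 5 of 7 and 7 of 7. For B and plasma cell markers it was 2 of 2 fitted in ISC and 3 of 4 in AE. Of enteroendocrine markers 4 of 13 were negative in ISC and 9 of 13 in AE. The part of any of these lists in the levels of the 3 genes was not tested.

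Because *Nrn1* and *Ric3* are best known from neurons, 10 markers of enteric neurons and glia were followed too. They summed to 4.14 to 7.10 CPM in young and 5.11 to 12.04 CPM in aged ISC, so that the aged range reached higher and overlapped the young one. *Sox10*, a defining gene of enteric glia, had 0 counts in all 4 groups. In AE the list of 10 was at 3.72 to 14.3 CPM in young and 1.61 to 4.95 CPM in aged mice, with overlap. All 5 markers fitted in AE had a negative log2 fold change (median -1.02, against -0.04 for all genes). There 2 were at an unadjusted p under 0.05 in edgeR's test (4.97% of all genes) and none was called. Of the 5 fitted in ISC, 4 had a positive log2 fold change (median 0.62, against 0.01), 1 was at an unadjusted p under 0.05 (4.47% of all genes) and none was called. The 12 stem cell markers were at 6371 to 8510 CPM in young and 6270 to 8647 CPM in aged ISC, ranges that nearly coincide.

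**Figure D4:**
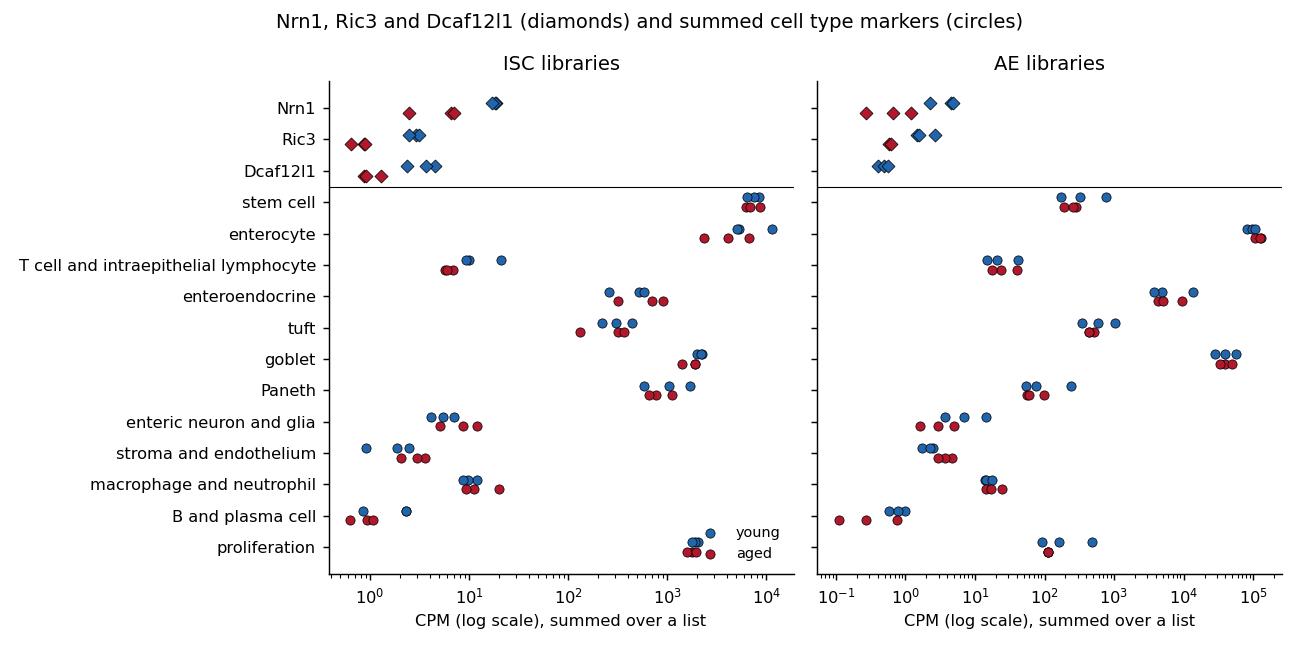
TMM-scaled CPM (x axes, log scale) of *Nrn1*, *Ric3* and *Dcaf12l1* (diamonds) and of 12 cell type marker lists summed per library (circles), in young (blue) and aged (red) ISC and AE libraries. Levels of 0, *Ric3* in the aged AE library O5 and *Dcaf12l1* in all 3 aged AE libraries, cannot be drawn on this axis; in ISC the 3 genes are lower in aged libraries while the stem cell list overlaps.

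Close relatives of the 3 genes were measured in the same libraries. *Nrn1l*, which encodes a neuritin-like protein, had 0.120 CPM in young ISC, 0.332 in aged ISC, and 0.215 and 0.245 CPM in AE of the 2 ages, a few counts per library. *Dcaf12*, the paralog of *Dcaf12l1*, differed little with age, with 60.6 ± 3.48 CPM (SD, n = 3) in young and 58.0 ± 3.67 CPM in aged ISC and 82.7 ± 6.61 and 80.5 ± 0.345 CPM in AE. *Dcaf12l2* had 0 counts in all 12 libraries. *Tmem35a*, which encodes the nicotinic receptor chaperone NACHO, had 1.17 ± 0.727 CPM in young ISC and 0.711 ± 0.417 in aged ISC, ranges that overlap, and had 1 count in AE, in a young library.

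The receptors that *Ric3* is known to serve were sparse. Of 16 nicotinic receptor subunit genes, 7 had 0 counts in all 12 libraries, the gene of the neuronal alpha 7 subunit, *Chrna7*, among them. The subunit with the most counts, *Chrnb2* (named here for that), had 5.62 CPM in young ISC, 5.66 in aged ISC, and 7.53 and 4.69 CPM in AE of the 2 ages. Of the list of 29 receptor and acetylcholine genes, 12 could be fitted with age in ISC and 13 in AE. In neither cell type did edgeR call any of them, where it called 0% of all genes. The medians of their log2 fold changes were -0.17 in ISC and -0.35 in AE, against 0.01 and -0.04 over all genes. The summed level of the list went the other way in ISC, from 395 to 471 CPM in the young libraries and from 478 to 636 CPM in the aged ones, without overlap. *Ly6e*, a GPI-anchored protein gene of the same family as the receptor modulators, made up most of that sum, with 293 ± 10.1 CPM in young ISC and 448 ± 99.5 in aged ISC. At an unadjusted p under 0.05 in edgeR's test were 2 of the 12 in ISC (4.47% of all genes) and 1 of the 13 in AE (4.97%). They are named after their values were seen. In ISC these were *Chrnb1*, a muscle receptor subunit (log2 fold change -1.09), and *Ly6e* (0.62). In AE it was *Lynx1*, a GPI-anchored modulator of these receptors (-1.74). Between the cell types, 8 of 14 were called by edgeR in the same direction at both ages, 6 higher and 2 lower in AE, where 52.9% of all 15581 genes fitted at both ages were so called. *Tmem35a* and *Ly6e* were the lower ones, and the subunit genes *Chrne* and *Chrna2* and the modulator *Lypd6* were the 3 with the largest difference among the higher ones. *Chrna2*, for instance, had 0.168 ± 0.292 CPM in young ISC, and young AE had 2.89 ± 3.22 CPM.

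For *Nrn1* the list held 18 genes of neuritin, the neurotrophins, their receptors and genes induced by activity. Of these, 7 could be fitted with age in ISC and 9 in AE. None was called by edgeR, which called 0% of all genes in either. None was at an unadjusted p under 0.05 in that test, against 4.47% of all genes in ISC and 4.97% in AE. With so few genes, nothing is read from these counts. The median log2 fold change of the fitted genes was 0.70 in ISC, where 6 of 7 were above 0, and -0.18 in AE. The neurotrophin gene *Bdnf* was higher in AE, with 1.48 ± 1.63 CPM in young AE compared with 0.0187 in young ISC, and its receptor gene *Ntrk2* was lower there, at 0.0159 ± 0.0276 CPM compared with 0.404 ± 0.294 CPM in young ISC. *Ntrk3*, another neurotrophin receptor gene, was higher in AE, at 1.21 ± 0.675 CPM in young AE compared with 0.0189 CPM in young ISC. The sorting receptor gene *Sort1*, with 162 ± 38.9 CPM in young AE compared with 280.4 ± 17.5 in young ISC, and the transcription factor gene *Creb1* were lower in AE, as *Nrn1* was. These are the 5 of 10 genes fitted at both ages that edgeR called in the same direction in both, again near the 52.9% of all genes.

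The CRL4 list, with the adaptor *Ddb1*, the cullins *Cul4a* and *Cul4b* and the DCAF receptors, had 29 genes that could be fitted at both ages in both cell types. None was called with age in ISC or in AE by edgeR, which called 0% of all genes in either. DESeq2 called none of them, where it called 0.412% of all genes in ISC and 0.105% in AE. None was at an unadjusted p under 0.05 in edgeR's test, against 4.47% of all genes in ISC and 4.97% in AE. With few genes in the list, nothing is read from these counts. The medians of their log2 fold changes were 0.0044 in ISC and 0.10 in AE. *Ddb1*, the adaptor, had 497 and 480.5 CPM in ISC and 454 and 439 CPM in AE, young and then aged. Between the cell types 15 of the 29 were called in the same direction at both ages, 9 lower in AE and 6 higher, a share near the 52.9% of all genes. *Dtl*, the DCAF of replicating cells, had the largest such difference (54.3 ± 5.54 CPM in young ISC and 3.50 ± 3.98 in young AE).

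Across the 12 libraries the genes most like each of the 3 were found by Pearson's r of log2(CPM + 0.5) over 12639 genes with a mean of at least 1 CPM. They share libraries, cell types and ages, so r describes likeness of pattern and has no p. For *Nrn1* these were *Prepl* (0.918), *Ints2* (0.918), *Stip1* (0.917), *Gcn1l1* (0.915) and *St13* (0.915). For *Dcaf12l1* they were *Bop1* (0.946), *Ripor1* (0.943), *Usp39* (0.941), *Men1* (0.939) and *Gcn1l1* (0.936), and for *Ric3* *Trim47* (0.913), *Cstf2t* (0.898), *Gm20425* (0.896), *Zfp54* (0.849) and *Sytl4* (0.843). *Stip1*, which encodes a cochaperone of heat shock proteins, stood at 217, 126, 88.0 and 41.4 CPM in the 4 groups, from young ISC through aged ISC and young AE to aged AE. Its order of groups was that of *Nrn1*, with smaller ratios between the ages in each cell type.

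Other transcripts could share reads with the 3 genes. In GENCODE *Nrn1* overlaps *Fars2* on the opposite strand over 501 bases, 22.3% of its merged exons, whereas RefSeq places *Fars2* 188027 bases away. Whether the counting used strand is not given in the sources used here. As a whole gene *Fars2* had 51.8 ± 7.34 CPM in young ISC, 52.2 ± 9.49 in aged ISC, and 31.2 ± 6.59 and 29.1 ± 5.48 CPM in AE, so it differed little with age. The level of the shared bases alone was not measured. Without strand, reads of the shared bases cannot be given to one of the genes. *Ric3* shares 149 bases (1.74%) with *Tub* on the opposite strand, which had 0 counts in ISC and means of 1.21 and 0.766 CPM in young and aged AE. *Dcaf12l1* overlaps no gene, and 0.964% of its 50-base stretches, the read length, also occur in *Dcaf12l2*, which had no counts. In their neighbourhoods, the genes on the far side of *Nrn1* (*F13a1*) and on both sides of *Dcaf12l1* (*Dcaf12l2* and *Prr32*) had 0 counts, and *Eif3f*, a neighbour of *Ric3*, was at 451 and 499 CPM in young and aged ISC.

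**Figure D5:**
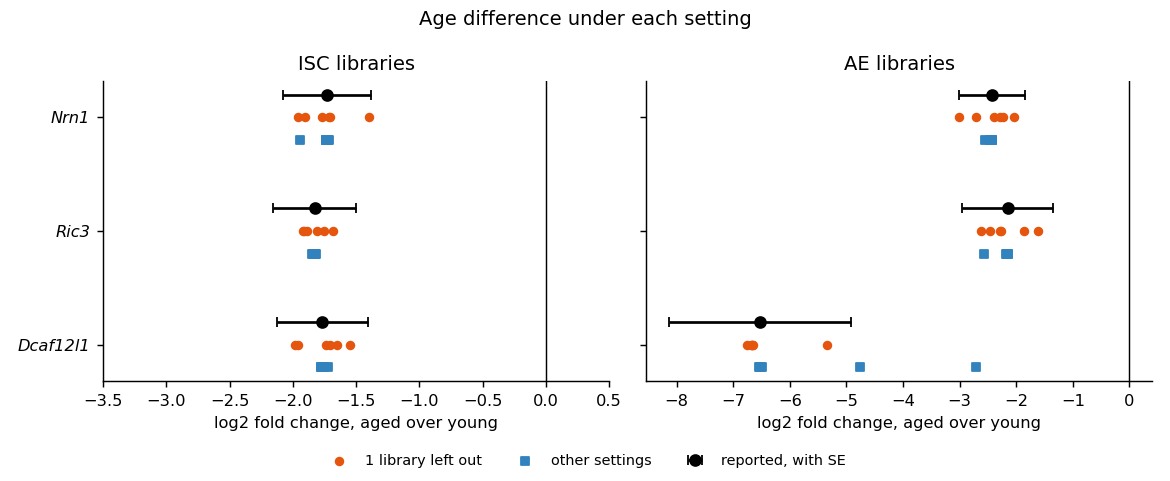
Log2 fold change of aged over young (x axes) for the 3 genes in ISC and AE as reported (black, bars are the standard error), with 1 library left out at a time (orange) and under other tests, scalings and filters (blue squares). Each value is below 0, and only *Dcaf12l1* in AE, whose aged libraries are at 0, spreads widely, from -6.77 to -2.71.

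Over all these alternatives the log2 fold change in ISC lay between -1.96 and -1.40 for *Nrn1*, between -1.92 and -1.68 for *Ric3* and between -1.98 and -1.55 for *Dcaf12l1*. The genes were picked for the ISC difference, so these ranges only describe it. The value for *Nrn1* nearest to 0 was without the aged library O3, which had its lowest level. In AE the range was -3.01 to -2.03 for *Nrn1* and -2.63 to -1.61 for *Ric3*. The *Ric3* value nearest to 0 was without the aged AE library O5, which had no *Ric3* count.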

How the data were processed

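Poly(A) RNA of sorted cells was sequenced as 50 bp single-end reads from a strand-specific kit. Per the labels and methods, the authors trimmed reads with Trim Galore 0.4.4, mapped them to GRCm38 with HISAT2 2.1.0, kept uniquely mapped reads and deposited raw counts over the merged exons of each gene from SeqMonk. The annotation release is not given in the sources used here. The authors also deposited log2 values for 49 genes, from counts scaled to the 75th percentile of the libraries, and the -log10 FDR of their own test, which was not used.

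*Nrn1*, *Ric3* and *Dcaf12l1*, the marker lists and the pathway lists were chosen with earlier results of these data known. Library sizes were scaled by TMM in edgeR 4.0.16 (R 4.3.3, limma 3.58.1), and genes reaching 10 counts in sum over a comparison's libraries were fitted with the quasi-likelihood test, adjusted by the Benjamini-Hochberg method over all genes fitted (FDR threshold 0.05). Each comparison of 2 groups used its 6 libraries, and the difference of age effects used all 12. The alternatives were DESeq2 1.42.0, scaling by RLE or the upper quartile, a weaker and a stricter filter, a joint fit of the 4 groups, the library code as a block, and each library left out in turn. The scripts were tested on simulated counts.

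The share of AE RNA in an ISC library is the median, over enterocyte markers, of their level in it divided by their mean in AE of that age. Markers that ISC make themselves raise this share. The share of ISC RNA in AE libraries, chosen after the data were examined, was found likewise from stem cell markers. Library codes are shared by ISC and AE libraries. Deviations from the group means correlated at 0.231 to 0.450 in the 6 pairs of the same code and at -0.425 to 0.145 in the 12 other pairs, so the code was used as a block between cell types. Genes named besides the 3 are their relatives, neighbours, up to 5 genes per pathway list that differed most between cell types at both ages, the 5 most like genes and markers that define a list. Promoter sequence is from RefSeq (GRCm38.p6), where of the 3 genes only *Dcaf12l1* had entries, 2 in number. Exons and transcripts are from GENCODE for GRCm38, whose coordinates of the 3 genes match the count table. Primers are from the study's supplement. Intervals and limits cover counting error only.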

Additional observations from a re-analysis of the deposited data

How the results depend on the processing

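The sign of the age difference of *Nrn1*, *Ric3* and *Dcaf12l1* was the same in ISC and AE under each alternative run. In ISC the genes were picked for this difference, and in neither cell type did the groups overlap. Leaving out a library or rescaling could therefore hardly turn the sign, and nothing is read from its constancy. In AE, DESeq2 called 17 genes and the fit without a filter 2, and leaving out 1 library gave 0 to 1. In ISC, DESeq2 called 59, the fit without a filter 1 and the joint fit of 4 groups 2, and leaving out 1 library gave 0 to 1. For the difference of age effects 1 gene was called, against 43 with DESeq2, 21 with the replicate block and 0 to 3 with 1 library left out. The ISC minus AE difference for *Ric3* turned to -0.18 without the aged AE library O5 (range -0.18 to 0.85). For *Dcaf12l1*, with 0 counts in aged AE, fitted values moved: -2.71 for age in AE on the authors' log2 scale, -5.82 with DESeq2 and -7.51 with the joint fit for AE against ISC in aged mice (-7.35 to -6.97 with 1 library left out), and 2.99 with DESeq2 for the difference of age effects (4.14 to 4.97 with 1 library left out). The filterByExpr filter of edgeR removed it from the AE comparison. The causes were not tested.

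With the highest marker ratio in place of the median, AE RNA could give 5.48%, 16.1% and 4.06% of the ISC difference of *Nrn1*, *Ric3* and *Dcaf12l1*, and with a library wholly of AE RNA 30.6%, 92.4% and 19.6%. Leaving out 1 library gave 1.19% to 2.38%, 3.37% to 7.04% and 0.933% to 1.85%. ISC RNA could give 119%, 41.0% and 152% of the AE difference with the highest ratio and 65.3%, 22.0% and 82.6% with proliferation markers, and 15.8% to 40.2%, 4.08% to 16.02% and 17.4% to 55.3% with 1 library left out. The pairing of codes as a replicate block changed 8864 calls between cell types to 8997 in young and 10161 to 10513 in aged mice, and left *Nrn1* at -2.31 and -3.03. For aged against young no paired analysis was possible because no source ties a code of one age to one of the other.

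With 3 libraries a group, and 21, 13 and 0 counts of *Nrn1*, *Ric3* and *Dcaf12l1* in aged AE together, depth limits what AE can show. Counts cannot separate transcripts, strand of counting is not given in the sources used here, and libraries are not tied to single animals in the sources used here.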
